A study of Mus musculus with 5 samples.

Results

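The insulin-like growth factor (IGF) genes of endothelial cells were described here across 5 arrays: the ligands Igf1 and Igf2, the receptor Igf1r and the binding proteins Igfbp1 to Igfbp7. Members were every probe that carries 1 of these 10 names on the array, which gave 19 probes of 56605, and 10 genes of 37074 names. Of the 19 probes, 18 were well above background on at least 1 array and 7 on all 5 arrays. The 5 arrays held liver sinusoidal endothelial cells (LSECs) from mouse liver, tumor endothelial cells (TECs) from HAK1B, Hepa1-6 and KYN2 tumors, and cultured Hepa 1-6 cells, with 1 array for each. HAK1B and KYN2 come from human hepatomas and Hepa1-6 from a hepatoma of the mouse, each grown as an orthotopic tumor in the mouse liver, and no animal had received a treatment that the labels name. The labels give the strain C57BL/6 for the LSECs and all TECs and C57L for the cultured cells. By the methods the hosts were female mice, 6 weeks old and either nude or C57BL/6, without a statement of which carried which tumor on the arrays, and their paragraph on the arrays lists Huh-7 where the labels have HAK1B. Cells were taken with magnetic beads against CD31, an adhesion molecule of endothelium that some blood cells also carry, and the number of animals behind an array is not given in the sources used here.

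IGF-1 and IGF-2 are small secreted peptides that signal growth and survival through the tyrosine kinase receptor encoded by Igf1r. In the circulation and in tissue they are held by high-affinity binding proteins, IGFBP-1 to IGFBP-6, which lengthen their life and limit their access to the receptor, while the related IGFBP-7 binds them weakly and is a product of many endothelial cells. The liver is the main source of circulating IGF-1, hepatocytes make IGFBP-1 under the control of insulin, and IGFBP-3 of the liver is made by its non-parenchymal cells. The arrays asked which of these genes differ between the endothelium of a liver tumor and that of the liver.

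Igfbp3 and Igfbp1 are neighbours on chromosome 11 and had the largest mean log2 ratios of TECs to LSECs, 6.11 ± 1.03 and 5.27 ± 5.13 (SD, n = 3). For Igfbp1 these ratios were 2.19, 11.19 and 2.44 in HAK1B, Hepa1-6 and KYN2 TECs. They take the reading of LSECs as measured, where the Igfbp1 probe was not well above background. Igfbp7 was the only member at least 2-fold lower in each TEC. The 250 bases before the transcription starts of these genes are shown from RefSeq (GRCm38.p6). A total of 5 motifs was searched on both strands. They were TATAAA of core promoters, the hypoxia response core ACGTG, the FoxO site CAAAACA of insulin-controlled promoters, the half-site GTTAAT of the liver factor HNF1, and the GC box GGGCGG. Matches are in capitals, and one on the other strand is printed as read on the strand of the gene, such as ATTAAC in Igfbp1 and CCGCCC in Igfbp7.
Igfbp1, chr11:7197537-7197786, plus strand: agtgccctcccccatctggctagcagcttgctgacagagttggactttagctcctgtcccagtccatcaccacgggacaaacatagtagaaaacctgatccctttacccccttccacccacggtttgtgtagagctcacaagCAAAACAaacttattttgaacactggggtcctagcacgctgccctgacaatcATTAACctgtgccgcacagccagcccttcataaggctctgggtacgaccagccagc
Igfbp3, chr11:7213924-7214173, minus strand: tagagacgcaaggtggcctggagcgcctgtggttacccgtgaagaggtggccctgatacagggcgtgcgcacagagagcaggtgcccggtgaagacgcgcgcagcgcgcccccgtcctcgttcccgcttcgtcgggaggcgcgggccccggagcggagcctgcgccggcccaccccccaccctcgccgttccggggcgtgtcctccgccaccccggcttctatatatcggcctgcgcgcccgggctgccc
Igfbp7, chr5:77408046-77408295, minus strand: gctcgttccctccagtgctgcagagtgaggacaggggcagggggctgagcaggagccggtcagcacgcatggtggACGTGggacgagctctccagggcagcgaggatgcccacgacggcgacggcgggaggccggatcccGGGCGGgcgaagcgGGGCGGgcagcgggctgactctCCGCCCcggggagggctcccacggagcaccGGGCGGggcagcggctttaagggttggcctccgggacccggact
The Igfbp1 window held 1 FoxO match and 1 HNF1 match, beginning 108 and 56 bases before the start. Of 32851 mouse promoter windows of the same length, 5.56% held CAAAACA and 6.43% held GTTAAT. The window of Igfbp3 held none of the 5 motifs. That of Igfbp7 held 4 GC boxes and 1 ACGTG, letters found in 32.7% and 16.6% of the windows. TATAAA was in 12.4% of all windows and in those of Igfbp4 and Igfbp6, where it began 28 and 148 bases before the start. The Igfbp3 and Igfbp7 windows had 73.2% and 74% G and C with 32 and 26 CpG, the Igfbp1 window 53.2% with 5 CpG, against a median of 52.4% over all windows.

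The levels below are log2 values of the background-subtracted signal after quantile normalization over the 5 arrays, so a step of 1 is a ratio of 2, and they are given in the order LSEC, HAK1B TEC, Hepa1-6 TEC, KYN2 TEC and cultured Hepa 1-6 cells. Each gene took its probe of highest mean signal, and the level of 1 probe was never set against that of another. Where a probe was not well above background on 1 of the arrays compared, the ratio is given as a bound ("at least"), computed from the lowest signal well above background on that array. A condition with a single array has no replicate, so a single comparison carries no p-value, and precision is limited by having 5 arrays. All comparisons with LSECs share 1 LSEC array. Probes well above background made up between 44.6% and 57.6% on 4 arrays and 78.1% on that of Hepa1-6 TECs, spots repeated within an array had a median coefficient of variation between 2.62% and 3.08%, and no probe was saturated. The LSEC array, the 3 TEC arrays and the cell array were on 3 separate slides, and the effects of slide and of group cannot be told apart. All 8 genes of an endothelial list (Pecam1, Cdh5, Kdr and others) were well above background on the LSEC and TEC arrays, with median levels of 13.28, 11.40, 11.01 and 12.23, and 1 of 8 on the cell array. All 5 macrophage genes were also well above background on those 4 arrays, with medians between 15.05 and 17.07.

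**Figure D1:**
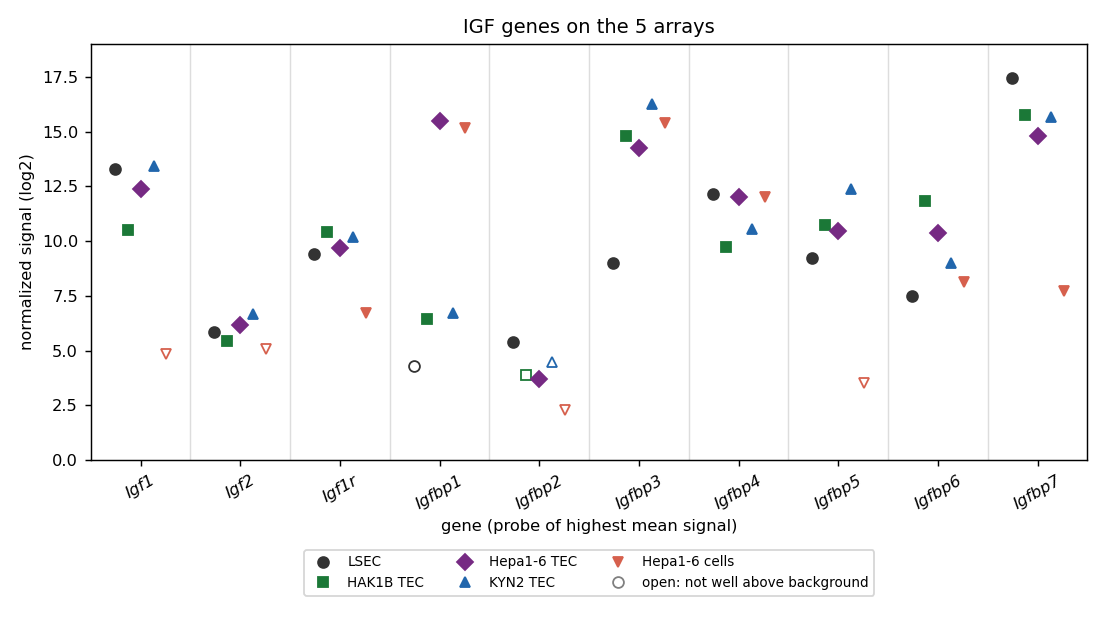
Levels of the 10 IGF genes on the 5 arrays, as log2 normalized signal of the probe of highest mean signal, with 1 symbol per array and open symbols where the probe was not well above background. Igfbp3 lay at 8.99 on the LSEC array and between 14.25 and 16.24 on the other 4, Igfbp1 was at 15.47 and 15.15 only with Hepa1-6 TECs and cultured cells, and Igfbp7 was highest on the LSEC array at 17.44.

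Igf1, the main growth-promoting ligand after birth, was by its brightest probe bright in endothelial fractions and not above background in the cultured cells. Its probe on NM_010512 (mm9, chr10:87393516-87393575) read 13.28, 10.52, 12.38, 13.41 and 4.83. The level in HAK1B TECs was 6.81-fold lower than in LSECs, that in Hepa1-6 TECs 1.87-fold lower, and that in KYN2 TECs 1.09-fold higher. The TECs thus lay on both sides of LSECs, with a mean log2 ratio of -1.18 ± 1.47 (SD, n = 3). By this probe Igf1 was at least 160-fold lower in the cultured cells than in LSECs. In Hepa1-6 TECs it was at least 85.7-fold higher than in those cells.

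Igf1 had 3 probes, whose first 30 of 60 bases are printed because their patterns parted.
Igf1 on NM_010512: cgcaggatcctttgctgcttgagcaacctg
Igf1 on NM_184052: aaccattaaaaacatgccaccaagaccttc
Igf1 on AK050118: taaaatagttgagtaaaatttgccactgat
The probe on NM_184052 (mm9, chr10:87378456-87378515) read 9.26, 8.75, 8.32, 9.64 and 9.21, so the cultured cells were within 1.03-fold of LSECs. The probe on AK050118 (mm9, chr10:87325382-87325441) read 7.49, 4.53, 7.06, 7.79 and 2.81. It placed the arrays in the same order as the first, whereas that on NM_184052 stayed well above background in the cultured cells. All 3 probes were lower in HAK1B and Hepa1-6 TECs than in LSECs and higher in KYN2 TECs.

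Igf2, the imprinted fetal ligand, stayed near background. Its brighter probe (NM_010514, mm9, chr7:149837115-149837174) read 5.85, 5.42, 6.18, 6.67 and 5.06, and was not well above background in the cultured cells. The ratios to LSECs were -0.43, 0.34 and 0.83 on the log2 scale in HAK1B, Hepa1-6 and KYN2 TECs, all under 2-fold. A second probe of the same transcript (chr7:149839661-149839720) was not well above background on any array, with values between 2.28 and 3.25.

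Igf1r, the receptor of both ligands, was measured by 4 probes that did not give 1 picture. The brightest (NM_010513, mm9, chr7:75371371-75371430) read 9.39, 10.41, 9.67, 10.18 and 6.70. By this probe Igf1r was 2.03-fold, 1.21-fold and 1.73-fold higher in HAK1B, Hepa1-6 and KYN2 TECs than in LSECs, with a mean log2 ratio of 0.70 ± 0.38 (SD, n = 3). A second probe of the same transcript (chr7:75371556-75371615) read 8.70, 8.68, 7.43, 8.31 and 2.35, the probe on AK155079 7.0, 7.10, 4.15, 5.96 and 2.36, and that on AK044980 6.27, 7.01, 4.10, 6.21 and 2.20. In Hepa1-6 TECs these 3 probes were 2.41-fold, 7.23-fold and 4.50-fold lower than in LSECs, opposite to the brightest, and the median over the 4 probes was -1.72 there and -0.23 in KYN2 TECs. In HAK1B TECs the other 3 probes gave log2 ratios of -0.02, 0.10 and 0.73, and the median over probes was 0.42, under 2-fold. No direction of Igf1r in a TEC against LSECs therefore held over all probes. In the cultured cells the brightest probe was 6.44-fold lower than in LSECs, and the other 3 were not well above background.

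**Figure D2:**
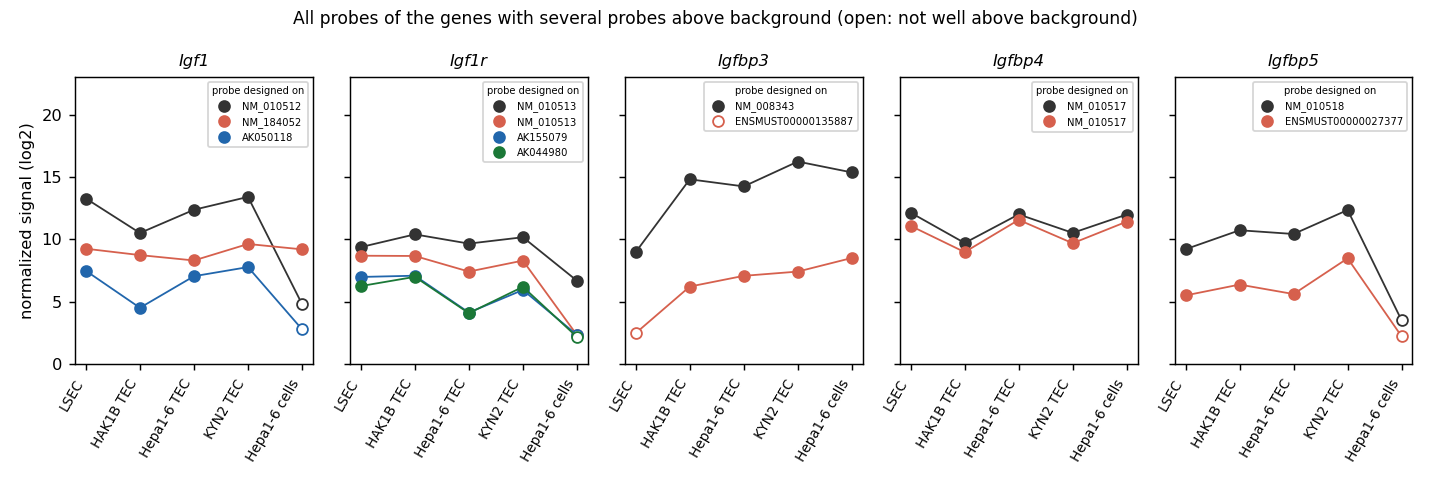
Log2 normalized signal of every probe of Igf1, Igf1r, Igfbp3, Igfbp4 and Igfbp5 across the 5 arrays, with 1 line per probe, named by the transcript it was designed on, and open symbols where not well above background. Lines of Igfbp3 and of Igfbp5 run the same way in TECs against LSECs, those of Igf1r part in Hepa1-6 TECs, and the Igf1 probe on NM_184052 stays at 9.21 in the cultured cells.

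Igfbp3, the main carrier of IGFs in blood, showed the widest gap between LSECs and the nearest TEC among the 10 genes. The probe on NM_008343 (mm9, chr11:7106193-7106252) read 8.99, 14.82, 14.25, 16.24 and 15.37. Igfbp3 was thus 56.8-fold higher in HAK1B TECs, 38.2-fold in Hepa1-6 TECs and 152-fold in KYN2 TECs than in LSECs, a mean log2 ratio of 6.11 ± 1.03 (SD, n = 3). The lowest TEC lay 5.26 log2 units above LSECs, while the 3 TECs spanned 1.99. The cultured Hepa 1-6 cells were also 83.2-fold above LSECs, and 2.18-fold above Hepa1-6 TECs.

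A second probe of Igfbp3 on ENSMUST00000135887 (mm9, chr11:7107949-7108008) ran the same way, and the first 30 bases of both probes are given for comparison.
Igfbp3 on NM_008343: gagctttccttgagagcacaaaggaatctc
Igfbp3 on ENSMUST00000135887: ggagaacctggcatatttggtttctgaatt
It read 2.50, 6.23, 7.09, 7.43 and 8.52 and was not well above background in LSECs. The TECs were at least 2.92-fold, 5.33-fold and 6.72-fold higher, and the cultured cells at least 14.3-fold.

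Igfbp1, the insulin-regulated binding protein of the liver, was higher in each TEC than in LSECs but by very different amounts. Its single probe (NM_008341, mm9, chr11:7102442-7102501) read 4.27, 6.46, 15.47, 6.72 and 15.15, and was not well above background in LSECs. The first 30 bases of that probe are printed because no other probe can check it.
Igfbp1 on NM_008341: aaagttccgatgctgattgtgtaaccaaag
Igfbp1 was at least 3.44-fold higher in HAK1B TECs, at least 4.11-fold in KYN2 TECs and at least 1768-fold in Hepa1-6 TECs than in LSECs. Hepa1-6 TECs and the cultured cells stood together at the top, and HAK1B and KYN2 TECs lay 2.19 and 2.44 above the reading of LSECs, or 0.86 and 1.00 after another background correction (normexp). The 3 TECs spanned 9.0 log2 units, a 514-fold range, and of 26526 genes flagged present on at least 1 TEC array 0.0679% spanned as much or more. The median gene spanned 1.07 and Igfbp3, next to it on the chromosome, 1.99.

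In Hepa1-6 TECs the level of Igfbp1 was 1.25-fold above that of the cultured cells, a log2 ratio of 0.32 that turned to -0.20 with scaling to the 75th percentile. A total of 31 probes marked the cancer cells: they were in the top 10% of the cell array and not above background on the LSEC, HAK1B TEC and KYN2 TEC arrays. These 31 probes had a median log2 ratio of -3.36 in Hepa1-6 TECs over cultured cells, from -10.49 to 0.10, and 30 were well above background in Hepa1-6 TECs. They were chosen for a high level in the cultured cells, which by itself lowers their ratio, so the members are not read against it. Of 8 hepatocyte genes, 8, 4, 7, 8 and 4 were well above background in LSECs, the 3 TECs and the cultured cells, with medians of 8.87, 4.89, 9.35, 6.87 and 6.49 and log2 summed signals of 13.62, 8.76, 15.94, 10.32 and 15.08. Between LSECs and Hepa1-6 TECs, Alb read 12.97 and 15.54 and Hnf4a 8.46 and 10.13. There Cyp2e1 read 10.81 and 9.16 and Cps1 4.99 and 2.80, the last not above background. In the cultured cells Alb read 13.94 and Hnf4a 13.52, whereas Cyp2e1 at 2.29 and Cps1 at 2.66 were not above background. The part of cancer cells or hepatocytes in the Igfbp1 and Igfbp3 levels was not tested. In bulk samples such as these, fewer cells of a type and less RNA per cell cannot be told apart.

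**Figure D3:**
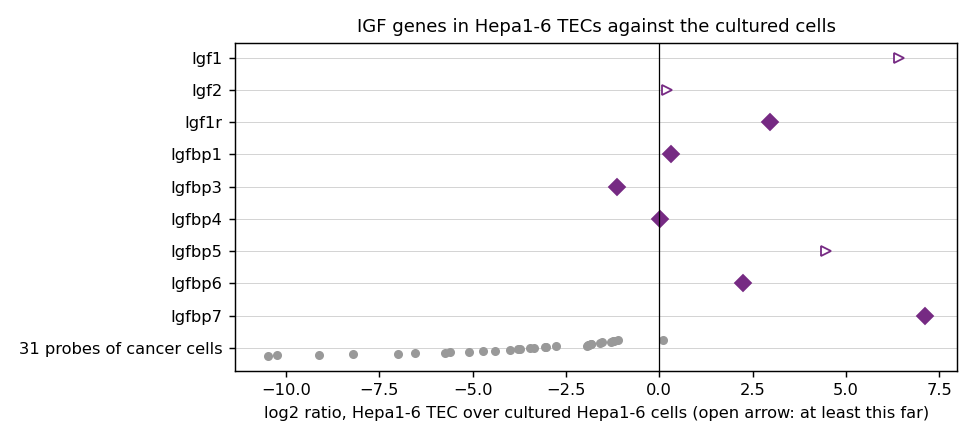
Log2 ratios of Hepa1-6 TECs over cultured Hepa 1-6 cells for 9 IGF genes (diamonds, measured on both arrays; open arrows, at least this far) and for the 31 probes that marked the cancer cells (grey points, spread vertically for visibility), which were chosen for a high level in the cells. Igfbp1 at 0.32 and Igfbp4 at 0.01 lie near 0, Igfbp3 is at -1.12, and Igfbp7 at 7.11.

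Igfbp7, the secreted protein of vessel walls that binds IGFs weakly, was brightest in LSECs. The probe (NM_008048, mm9, chr5:77778355-77778414) read 17.44, 15.76, 14.82, 15.65 and 7.71. It was 3.20-fold lower in HAK1B TECs, 6.15-fold in Hepa1-6 TECs and 3.45-fold in KYN2 TECs, a mean log2 ratio of -2.03 ± 0.52 (SD, n = 3). All TECs were below LSECs and lay within 0.94 of each other, and Hepa1-6 TECs were 138-fold above the cultured cells. The endothelial list was lower in TECs as well, with a median log2 ratio to LSECs of -2.49, -2.52 and -1.34 in HAK1B, Hepa1-6 and KYN2 TECs, and their part in the Igfbp7 result was not tested.

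Igfbp5, a binding protein held in the extracellular matrix, was higher in all TECs and not above background in the cancer cells. Its probe on NM_010518 (mm9, chr1:72904829-72904888) read 9.22, 10.74, 10.44, 12.36 and 3.52. The ratios to LSECs were 2.88-fold in HAK1B TECs, 2.34-fold in Hepa1-6 TECs and 8.81-fold in KYN2 TECs, a mean log2 ratio of 1.96 ± 1.03 (SD, n = 3). A second probe (chr1:72904506-72904552) read 5.52, 6.39, 5.63, 8.49 and 2.24, with the same order of TECs but only 1.08-fold in Hepa1-6 TECs. Over cultured cells, Hepa1-6 TECs were at least 22.4-fold higher by the first probe.

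Igfbp6, which prefers IGF-2, took another order among the TECs. It read 7.5, 11.83, 10.36, 8.99 and 8.13 (NM_008344, mm9, chr15:101979852-101979911). The gene was 20.2-fold, 7.30-fold and 2.81-fold higher in HAK1B, Hepa1-6 and KYN2 TECs than in LSECs, a mean log2 ratio of 2.90 ± 1.42 (SD, n = 3), and 1.55-fold higher in the cultured cells. HAK1B TECs were thus highest for Igfbp6, whereas KYN2 TECs were highest for Igfbp3 and Igfbp5. Of 4 neutrophil genes, 3, 4, 4 and 3 were well above background in LSECs and in HAK1B, Hepa1-6 and KYN2 TECs and 1 in the cultured cells. Their medians were 8.64, 14.46, 11.95, 8.96 and 4.37 and their log2 summed signals 10.92, 17.06, 14.61, 11.35 and 9.84. Both placed the TECs in the same order as Igfbp6. So did S100a8, S100a9 and Retnlg singly, whereas Ly6g read 6.12, 7.10 and 2.72 in the TECs, the last not above background. Ly6g was highest in the cultured cells, at 9.74, and Retnlg read 9.96 in LSECs and 8.48 in KYN2 TECs. The part of neutrophils in the Igfbp6 level was not tested.

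Of 8 stellate cell and fibroblast genes, 5, 7, 8 and 7 were well above background in LSECs and in HAK1B, Hepa1-6 and KYN2 TECs and 1 in the cultured cells, with medians of 5.97, 8.80, 9.02, 9.31 and 4.74 and log2 summed signals of 11.79, 12.40, 15.07, 13.73 and 16.74. Members of the list differed: Col1a1 read 4.72 (not above background) in LSECs and 9.46, 10.87 and 11.53 in the TECs, Reln 7.84 and then 8.14, 5.93 and 6.63, and Dcn 11.44 and then 10.65, 14.72 and 11.66. Lrat, which marks stellate cells, read 3.43, 2.73, 4.16, 4.71 and 3.17. It was flagged above background in Hepa1-6 TECs alone, though it read higher in KYN2 TECs. The lowest signal well above background was 2.85 on the Hepa1-6 TEC array and 4.65 on that of KYN2 TECs. In the cultured cells Dcn read 16.74. The part of these cells in the Igfbp3, Igfbp5 and Igfbp6 levels was not tested.

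Igfbp4, an inhibitory binding protein that the protease PAPP-A cleaves, was at least 2-fold lower in HAK1B and KYN2 TECs but not in Hepa1-6 TECs. The brighter probe (NM_010517, mm9, chr11:98913334-98913393) read 12.15, 9.72, 12.01, 10.53 and 12.00. Igfbp4 was 5.42-fold lower in HAK1B TECs and 3.07-fold lower in KYN2 TECs, while Hepa1-6 TECs and cultured cells were within 1.11-fold of LSECs. The second probe (chr11:98909591-98909650) read 11.09, 8.99, 11.57, 9.70 and 11.43 and also placed HAK1B and KYN2 TECs lowest, with Hepa1-6 TECs 1.40-fold above LSECs. No test of the difference between tumors is possible with 1 array each.

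Igfbp2, the neighbour of Igfbp5 on chromosome 1 and a carrier of serum, was dim throughout. It read 5.38, 3.89, 3.72, 4.49 and 2.29 (NM_008342, mm9, chr1:72898677-72898736) and was well above background in LSECs and Hepa1-6 TECs alone. It was at least 2.15-fold lower in HAK1B TECs, 3.16-fold in Hepa1-6 TECs and at least 1.66-fold in KYN2 TECs. The value in Hepa1-6 TECs was -0.29 on the log2 scale after scaling to the 75th percentile and -0.46 with the normexp correction, against -1.66, so the size is uncertain.

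**Figure D4:**
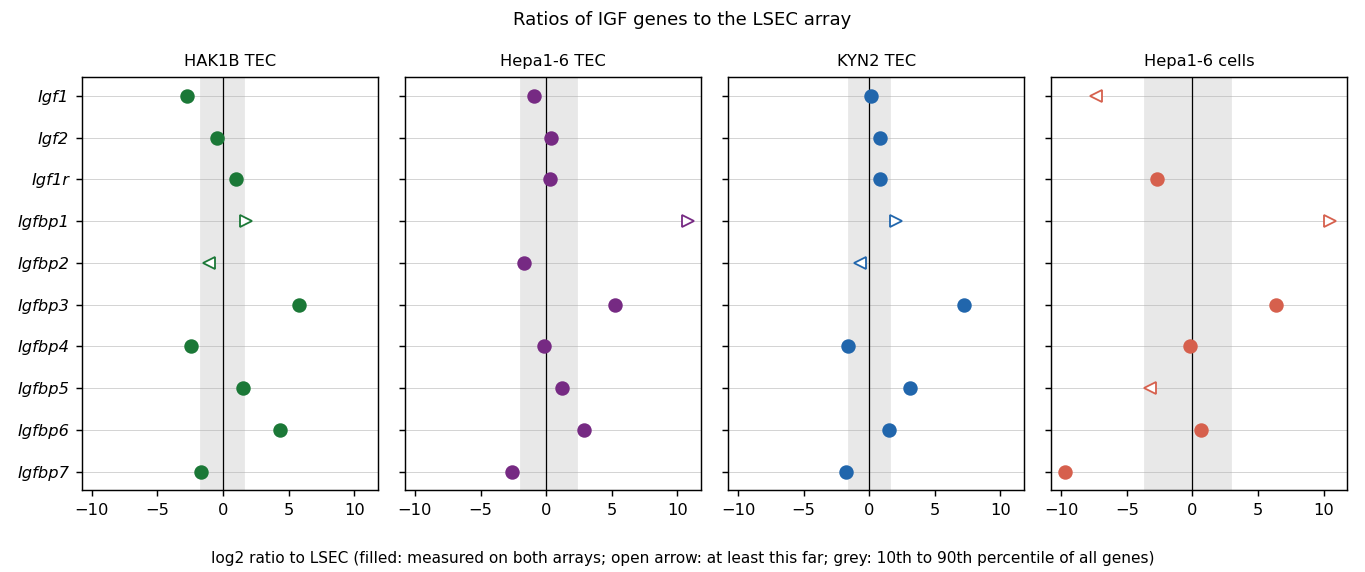
Log2 ratios to LSECs of the 10 IGF genes in HAK1B, Hepa1-6 and KYN2 TECs and in cultured Hepa 1-6 cells, with filled circles where both arrays were well above background, open arrows for bounds and a grey band from the 10th to the 90th percentile of all genes. Igfbp3 lies right of the band in all 4 panels (5.83, 5.26, 7.25 and 6.38). Igfbp7 is left of the band in Hepa1-6 and KYN2 TECs and in the cultured cells (-9.73). In HAK1B TECs it is at the edge of the band (-1.68 against -1.67). Igf2 and Igfbp2 have no ratio in the cells.

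Counted by a ratio of 2 to LSECs, 5 of the 10 genes were higher and 4 lower in HAK1B TECs, where 14.3% of all genes kept were higher and 16.9% lower. In Hepa1-6 TECs 4 were higher and 2 lower, against 16.9% and 20.4% of all genes. With scaling to the 75th percentile, 62.8% of all 2-fold calls of that array were higher, against 45.3% here, and the median gene moved from 0.09 to 0.43. In KYN2 TECs 4 were higher and 2 lower, against 14.6% and 16.1%. The 5 higher in HAK1B TECs included Igf1r at 2.03-fold, and 3 were left with the normexp correction.

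The genes at least 2-fold higher in each of the 3 TECs were Igfbp1, Igfbp3, Igfbp5 and Igfbp6, 4 of 10 against 5.52% of 19310 genes kept in all 3 comparisons. This count depended on the settings. With the normexp correction Igfbp1 had a log2 ratio of 0.86 in HAK1B TECs, under 2-fold. By the median over probes Igfbp5 had one of 0.67 in Hepa1-6 TECs. The ratios of Igfbp3 and Igfbp6 stayed above 2-fold in each TEC under the alternatives. Igfbp7 was the only member at least 2-fold lower in each, 1 of 10 against 9.94% of those genes, a share close to the background. The median log2 ratio of the 10 genes, with values near background taken as measured, was 0.30, 0.31 and 0.81 in HAK1B, Hepa1-6 and KYN2 TECs, and that of all genes -0.00, 0.09 and -0.05. The members thus held some wide ratios rather than a common shift, and the widest were higher. The highest member stood at 5.83, 11.19 and 7.25 in these TECs, and the lowest at -2.77, -2.62 and -1.79.

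The methods called a gene higher at a ratio from 1.5 and a Z-score from 2 upward, and lower from 0.66 and -2 downward. Under this rule of size Igfbp3 and Igfbp6 were higher in HAK1B TECs, where 3.11% of all genes passed. Igfbp1 and Igfbp3 were higher in Hepa1-6 TECs (4.55% of all genes), and Igfbp3 and Igfbp5 in KYN2 TECs (3.64%). No member was lower by this rule in a TEC, where 3.94%, 2.04% and 2.87% of all genes were lower in HAK1B, Hepa1-6 and KYN2 TECs. The Z-score asks for a 7.25-fold, 11.4-fold and 6.79-fold higher level in these comparisons. Igfbp3 was the one member that passed in all 3.

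The cultured Hepa 1-6 cells had 2 of the 10 genes at least 2-fold above LSECs, Igfbp1 (at least 1415-fold) and Igfbp3, and 4 below, Igf1, Igf1r, Igfbp5 and Igfbp7, where 28.2% and 23.1% of all genes were higher and lower. By the rule of size the same 2 genes were higher and Igf1, Igfbp5 and Igfbp7 lower, against 2.59% and 4.81% of all genes, and Igfbp7 was 848-fold lower. Hepa1-6 TECs over the cultured cells had 5 genes at least 2-fold higher, Igf1, Igf1r, Igfbp5, Igfbp6 and Igfbp7, and Igfbp3 lower, against 13.4% and 17.6% of all genes. In the cultured cells Igfbp1, Igfbp3 and Igfbp4 read 12.00 or more, whereas the brightest probes of Igf1, Igf2, Igfbp2 and Igfbp5 were not well above background. Another Igf1 probe read 9.21 there, against 9.26 in LSECs and 8.32 in Hepa1-6 TECs. The Igf1 differences counted above did not hold by that probe.

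To set the 3 TECs as 1 group against LSECs, limma was fitted to 42115 probes, which leaves 2 residual degrees of freedom and takes the single LSEC array to vary as TECs do. No probe passed an adjusted p of 0.05 (0% of those tested), and 8.5% were under 0.05 unadjusted. Of 18 member probes tested, 0 passed after adjustment and 3 were under 0.05 unadjusted, the 2 of Igfbp3 and that of Igfbp7. The 2 probes of Igfbp3 had log2 ratios of 6.11 (SE 0.93) and 4.42 (SE 0.68) in this fit, higher in 3 of 3 TECs. Igfbp7 had an adjusted p of 0.525 by limma, lower in 3 of 3 TECs, and Igfbp1, with an SE of 4.05 around 5.27, an adjusted p of 0.831.

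Other genes of the pathway were taken from 6 lists of 31 genes. In HAK1B TECs 25 of the 31 were kept, with 7 at least 2-fold higher and 6 lower than in LSECs. In Hepa1-6 TECs all 31 were kept, with 17 higher and 3 lower, and in KYN2 TECs 27, with 11 higher and 4 lower. Of all genes, 14.3% were higher and 16.9% lower in HAK1B TECs, 16.9% and 20.4% in Hepa1-6 TECs, and 14.6% and 16.1% in KYN2 TECs, and the list counts below are to be read against these shares. The median log2 ratios of the 6 lists together were 0.04, 1.32 and 0.65, against -0.00, 0.09 and -0.05 for all genes. As given above, scaling to the 75th percentile moved the calls of Hepa1-6 TECs over all genes to 62.8% higher.

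Among the proteases that cut binding proteins and their inhibitors, 2, 3 and 2 genes (of 3, 5 and 3 kept) were higher and 0, 1 and 1 lower in HAK1B, Hepa1-6 and KYN2 TECs. Stc1 and Stc2 encode stanniocalcins, which inhibit the PAPP-A proteases. Stc1 read 3.03 (not above background), 6.22, 7.64, 9.21 and 8.55, at least 2.92-fold, 7.79-fold and 23.2-fold higher in the 3 TECs. Stc2 read 3.81, 6.79, 6.59, 9.48 and 2.18, not above background in LSECs and in the cultured cells, and was at least 4.32-fold, 3.75-fold and 28.0-fold higher. Both were highest in KYN2 TECs, like Igfbp3 and Igfbp5. Of the 4 genes of the Igf2 locus and of binders of its mRNA, 2, 3 and 3 (of 3, 4 and 4 kept) were higher and 1, 0 and 0 lower. H19, an imprinted noncoding RNA next to Igf2, read 5.23, 8.37, 8.73, 9.71 and 4.87, or 8.80-fold, 11.3-fold and 22.3-fold higher, while Igf2 itself was under 2-fold. Igf2bp3, an RNA-binding protein of fetal tissue and tumors, read 4.88, 5.89, 10.61, 7.12 and 12.21, highest with Hepa1-6 TECs and cultured cells.

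Of 8 adaptors and kinases below the receptor, 1, 5 and 2 (of 7, 8 and 8 kept) were higher in HAK1B, Hepa1-6 and KYN2 TECs, and 1, 0 and 1 lower, where 14.3%, 16.9% and 14.6% of all genes were higher. Irs2, an adaptor of the insulin and IGF-1 receptors, read 9.99, 12.78, 12.79, 12.56 and 11.07, and its 6.88-fold, 6.95-fold and 5.91-fold ratios lay closer together than those of Igfbp3 (SD 0.13 against 1.03 on the log2 scale). Irs1, the other adaptor, read 3.46, 2.22, 10.91, 4.76 and 11.70, not above background in LSECs and HAK1B TECs and bright with Hepa1-6 TECs and cultured cells, as Igfbp1 was. Of 5 genes of the growth hormone axis, 1 was higher in each TEC, and 2, 1 and 1 lower. Stat5b, which carries the growth hormone signal to Igf1, read 12.24, 11.06, 10.67, 10.67 and 9.97, between 2.28-fold and 2.98-fold lower in TECs. The growth hormone receptor gene Ghr read 8.94, 6.90, 9.05, 8.69 and 9.15 and was 4.11-fold lower in HAK1B TECs. The part of these genes in the Igf1 levels was not tested.

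Of 4 other receptors and carriers, 0, 2 and 1 (of 2, 4 and 2 kept) were higher and none lower. The insulin receptor gene Insr read 7.71, 8.44, 7.72, 8.85 and 6.93. Igfals, the third partner of the circulating complex of IGFs and IGFBP-3, was above background in Hepa1-6 TECs alone, at 6.74. Of 5 relatives of the binding proteins, 1, 3 and 2 were higher and 2, 1 and 1 lower. Esm1, a proteoglycan of sprouting endothelium, read 9.51, 11.79, 13.20, 15.65 and 6.95, or 4.85-fold, 12.9-fold and 70.5-fold higher in TECs. Igfbpl1 read 6.15, 4.01, 3.06, 3.87 and 3.09, not above background in HAK1B and KYN2 TECs and in the cultured cells. It was at least 3.66-fold lower in HAK1B TECs, 8.5-fold in Hepa1-6 TECs and at least 2.83-fold in KYN2 TECs.

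**Figure D5:**
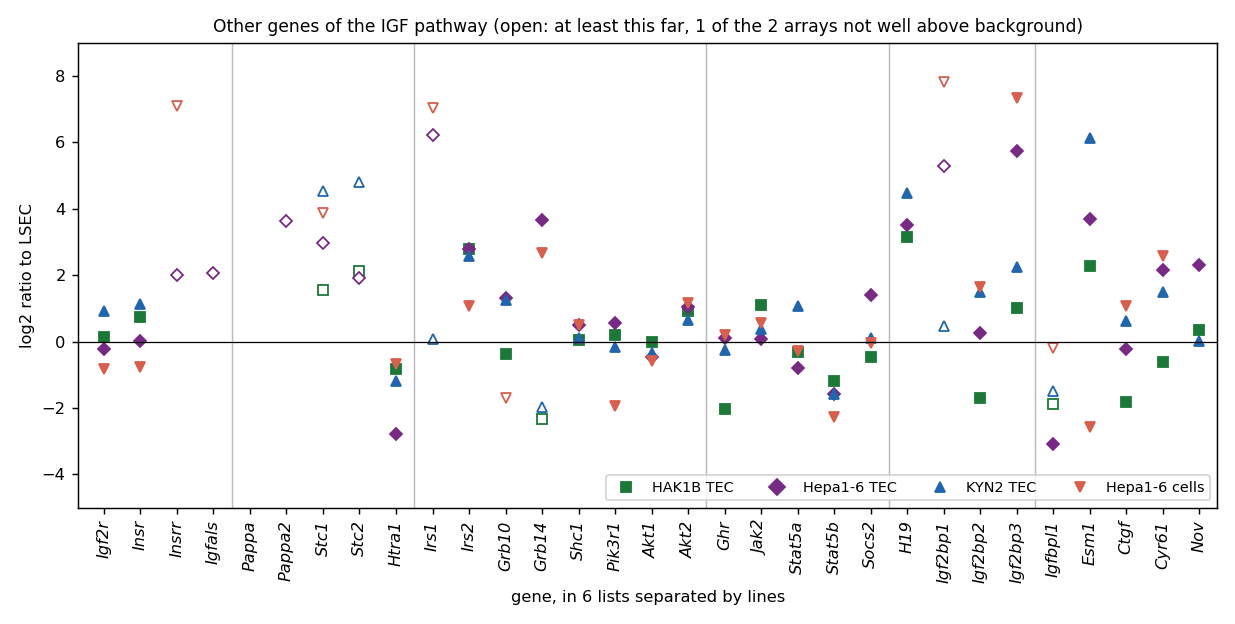
Log2 ratios to LSECs of 31 other genes of the IGF pathway in 3 TECs and cultured Hepa 1-6 cells, in 6 lists separated by lines, with open symbols for bounds and no symbol where no ratio could be given. Stc1, Stc2, H19, Irs2 and Esm1 lie above 0 in all 3 TECs, whereas Irs1, Igf2bp1 and Igf2bp3 reach highest in Hepa1-6 TECs and cultured cells.

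The genes most like a member were those with the smallest root mean square difference between centred log2 patterns over the 5 arrays, among 18827 genes with a probe well above background on at least 3, where another gene was taken by its probe nearest to the member rather than its brightest. Igfbp1 had no gene within 0.5 of it. Igfbp7 was nearest to Slfn5 at 0.18 and Sox18, a transcription factor of endothelium, at 0.20, with 42 genes within 0.5. Igfbp5 was nearest to Fstl1 at 0.32 and Ednrb, an endothelin receptor gene, at 0.34, Igfbp6 to Adamtsl4 at 0.26 and Pdcd1 at 0.28, and Igf1 to Epb4.1l3 at 0.48 and Btnl9 at 0.51. Igfbp4 was nearest to Rtkn at 0.07 and Ifi205 at 0.09, with 154 genes within 0.5. Igf2, which was not above background in the cultured cells, had 1118 genes within 0.5 and was nearest to Mfn1 at 0.08 and Dnah8 at 0.10, and Igf1r had 451 and was nearest to Gm8013 at 0.08 and Socs2 at 0.12. The matching probes of Slfn5, Fstl1, Ednrb, Mfn1 and Socs2 were not the brightest of their genes, and for Socs2 the brightest read 9.38, 8.92, 10.79, 9.48 and 9.33, unlike Igf1r.

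Between the brightest probes of the members, the nearest other member lay between 1.06 (Igf2 and Igf1r) and 1.41 (Igfbp5 to Igf1) for 7 of the 9 genes compared. For Igfbp3 it was Igfbp6 at 2.31 and for Igfbp1 it was Igfbp3 at 4.27. Igfbp1 and Igfbp3 are adjacent on chromosome 11 with 0 genes between, and their probes lie 3691 bases apart in mm9. Igfbp2 and Igfbp5 are adjacent as well, with 6092 bases between their probes. There Igfbp5 was higher in all TECs than in LSECs and Igfbp2 lower in all 3, the latter near background.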

How the data were processed

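Gene expression was measured with 1 Cy3-labelled 60-mer mouse array for each of 5 conditions, so each group held 1 sample. The authors amplified and labelled total RNA, and deposited scanner output with a linear intensity for every spot, background-subtracted within the array (gProcessedSignal) and also as raw mean and local background. The deposited flags mark with 0 or 1 whether a spot is well above background (other). The submitters' processing notes name Agilent Feature Extraction 9.5.1.1, whereas the file headers give 10.7.1.1. The deposited table of normalized intensities held the same 56605 probes on a linear scale and correlated with the values computed here at r of 0.9998 to 1.0000 on the log2 scale. Its median was 43 in every column, and whether it was centred on more arrays than these is not known. Probe positions are those of the files (mm9). Exon annotation of that build was not used here.

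Control spots were left out, spots of 1 probe were averaged, and the log2 signals of all 5 arrays were quantile normalized together, whereas the methods normalize the pair compared. A comparison used probes flagged present on 1 or both of its arrays, without lincRNA probes. The Z-score was the log2 ratio minus its mean over kept probes, divided by the SD. The 3 TECs were compared with LSEC by limma 3.58.1 in R 4.3.3 with Benjamini-Hochberg adjustment. The fit had been tested on simulated data with less noise than between the TEC arrays, which does not show how it performs here. Python 3.11.15, numpy 2.4.6, pandas 2.3.3 and matplotlib 3.10.9 did the rest. All probes of the 10 genes are named, with up to 2 genes of each pathway list that had the largest absolute mean ratio over TECs, genes past the rule of size, and the 2 genes most like each member, except for some that are not reported here. The members and lists were chosen with earlier results of these data known. Alternatives were quantile normalization by pair, scaling to the 75th percentile, normexp with an offset of 50, the deposited table, the median over probes, other filters and each TEC left out. Arrays of microRNA and of tumors given a microRNA cocktail were not analysed here.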

Additional observations from a re-analysis of the deposited data

Results flagged for a closer look

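Among the pathway genes, 2 had TECs more than 2-fold above and more than 2-fold below LSECs. Grb14, an adaptor that inhibits the insulin receptor, had a log2 ratio of 3.67 in Hepa1-6 TECs and of at most -2.33 in HAK1B TECs, where it was not well above background. Its levels were 6.61, 3.59, 10.28, 4.15 and 9.27 on the LSEC, HAK1B TEC, Hepa1-6 TEC, KYN2 TEC and cultured cell arrays. Igf2bp2, an RNA-binding protein named for its binding of Igf2 transcripts, had log2 ratios of 1.49 in KYN2 TECs and -1.71 in HAK1B TECs, with levels of 7.77, 6.06, 8.03, 9.26 and 9.42. These differences between tumors were not tested, since each had 1 array.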

How the results depend on the processing

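Of 163 counts and medians recomputed under the alternatives, 144 moved by less than 1.5 times or by less than the spread, and 19 moved further. Of 250 single ratios of the 10 genes, 223 stayed within the spread between TECs and 27 did not. With the normexp correction, the genes at least 2-fold higher in HAK1B TECs numbered 3, those lower by the rule of size there 2 and in Hepa1-6 TECs 1, those at least 2-fold lower in Hepa1-6 TECs 1, and the median ratio was -0.39 in cultured cells over LSECs and 1.22 in Hepa1-6 TECs over cultured cells. Scaling to the 75th percentile left 1 gene at least 2-fold lower in Hepa1-6 TECs and gave a median of 2.18 over cultured cells. The genes lower by the rule of size in HAK1B TECs were 1 with the deposited table, 2 with no filter on flags and 2 with probes present on both arrays. Asking for both arrays well above background left 1 gene higher and 2 lower in cultured cells, and 3 higher in Hepa1-6 TECs over them. By the rule of size in cultured cells, 1 was higher and 1 lower with presence on both arrays, and 1 lower with the median over probes, which also turned the median ratio of HAK1B TECs to -0.01. Leaving out each TEC in turn left between 2 and 6 member probes under an unadjusted p of 0.05 by limma, 6 without Hepa1-6 TECs, and 0 after adjustment. The smallest adjusted p of any probe over these fits lay between 0.0576 (normexp) and 0.982 (without KYN2 TECs).

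No paired analysis was possible because no group had over 1 array. A block for slide was not run, since the LSEC array was on 1 slide and the 3 TEC arrays on another. Signals near background, such as those of Igf2 and Igfbp2, carry ratios that depend on the background correction, and the array of Hepa1-6 TECs detected more probes than the others.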
